A study of Mus musculus with 2 samples.

Results

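The genes described here are 5 chemokine ligands that attract neutrophils, Cxcl1, Cxcl2, Cxcl3, Cxcl5 and Cxcl15, and the receptor Cxcr2. They were chosen by name, and all 6 are among the 27999 genes listed in each library. Their transcripts were followed through epithelial, myeloid, stromal and carcinoma cell classes of the mouse lung in 2 single-cell RNA sequencing libraries. Both libraries came from whole lungs of female FVB/NJ mice that were 10 weeks old when Met-1 mouse mammary carcinoma cells were injected into the tail vein. At week 1 the lung of 1 mouse gave the low metastatic burden library, and at week 3 that of another gave the high metastatic burden library. Injection into the vein seeds the lung directly, without a primary tumor, and both lungs were perfused, digested with type 2 collagenase and further enzymes, and loaded as suspensions of all cells. There was no uninjected lung, so both groups carried Met-1 cells.

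With 1 library per group there was no test between burdens, and week, mouse and library cannot be told apart. Every interval below is an exact interval at 95% that covers counting error only. Levels are counts of unique molecular identifiers (UMIs, 1 per captured transcript) summed over the cells of a class and scaled to a total of 1000000 (CPM). The low-burden library held 2473 cells after filtering, with a median of 4073 UMIs, and the high-burden library 3033 cells with a median of 13998 UMIs. The high-burden median was 3.44-fold higher, so shares of cells with a UMI are given after each cell was thinned to 3000 UMIs. The libraries shared 11 cell barcodes.

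CXC chemokines with a glutamate-leucine-arginine motif ahead of the first cysteines bind CXCR2 on neutrophils and draw them out of the blood into inflamed tissue. Interleukin-1, tumor necrosis factor and interleukin-17 induce Cxcl1 and Cxcl2 through NF-κB and through slower decay of their short-lived mRNAs. Cxcl5 in the lung is known mainly from epithelium, and Cxcl15 (lungkine) is a constitutive product of lung epithelium.

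The 5 ligand genes lie together on mouse chromosome 5 (GRCm38, GENCODE M21, all on the plus strand), within 146.6 kb. Their order is Cxcl5 (chr5:90759360-90761624), Cxcl3 (chr5:90786103-90789600), Cxcl15 (chr5:90794534-90803067), Cxcl1 (chr5:90891241-90893115) and Cxcl2 (chr5:90903871-90905938), each with 4 exons, and 10.8 kb separate the end of Cxcl1 from the start of Cxcl2. Cxcr2 (chr1:74153989-74161246, 3 exons) is on chromosome 1. The promoters of Cxcl1, Cxcl2 and Cxcl3 are shown because these neighbors share exact strings of letters near the start that the promoter of Cxcl15 does not hold. The sequences are from RefSeq (GRCm38.p6, plus strand) and cover the 120 bases before the RefSeq start, which lies 4 bases after the GENCODE start printed above for Cxcl1 and 28 bases after it for Cxcl2. Capitals mark GGAATTTCC, which has the form of an NF-κB site, and ATAAAAGG, which has the form of a TATA box, a form that other letters can also take.
Cxcl1 (chr5:90891125-90891244): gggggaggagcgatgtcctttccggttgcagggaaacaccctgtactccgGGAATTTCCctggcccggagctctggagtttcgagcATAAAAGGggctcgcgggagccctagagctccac
Cxcl2 (chr5:90903779-90903898): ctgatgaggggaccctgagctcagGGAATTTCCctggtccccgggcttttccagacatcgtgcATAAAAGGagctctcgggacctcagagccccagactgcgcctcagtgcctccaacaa
Cxcl3 (chr5:90785981-90786100): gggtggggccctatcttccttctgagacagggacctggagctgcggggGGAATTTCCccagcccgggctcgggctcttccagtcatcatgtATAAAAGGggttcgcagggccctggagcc
Cxcl15 (chr5:90794414-90794533): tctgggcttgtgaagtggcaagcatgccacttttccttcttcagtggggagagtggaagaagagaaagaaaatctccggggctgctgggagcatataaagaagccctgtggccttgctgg

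The first base of GGAATTTCC stood at -70 from the RefSeq start in Cxcl1, at -96 in Cxcl2 and at -72 in Cxcl3, and the first base of ATAAAAGG at -34, -57 and -29. Over windows of 250 bases before to 50 bases after the start, searched on both strands, 104 of 32851 promoters (0.317%) held GGAATTTCC and 577 (1.76%) held ATAAAAGG. Neither was found in the windows of Cxcl15 or Cxcr2. The table held 5 of the 6 members, without Cxcl5. These matches are descriptions of letters and not of binding. The longest identical stretch between transcripts was 110 bases for Cxcl2 and Cxcl3 and 23 bases for Cxcl1 with either, so reads could in principle be shared between Cxcl2 and Cxcl3. Within the last 300 bases, where these libraries are mostly read, the Cxcl2 and Cxcl3 stretch was 16 bases.

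Cells were assigned to classes by marker lists and carry the ending "-like". A class was given to 93.2% of low-burden and 91.4% of high-burden cells. Marker genes of each class stood among its 10 leading genes, and no class had more leading markers of another class. Cells were gated on these same markers, so this does not test the names. All 26 high-burden club-like cells lay in a ciliated-named cluster. A T-named cluster held 84.6% of high-burden B-like and 87.5% of low-burden NK-like cells. The makeup of the suspensions differed. Metastatic-like cells were 0 of 2473 at low burden, which allows a share of up to 0.121% (3 counts of the total), and 1373 cells (45.3%) at high burden. C1q macrophage-like cells (C1qa, C1qb, C1qc) were 57 and 848 cells, alveolar macrophage-like cells (Marco, Ear1, Chil3) were 466 and 3 cells, and adventitial fibroblast-like cells 256 and 20 cells. Comparisons between burdens therefore leave out metastatic-like cells or stay within a class. RNA free in the suspension adds UMIs to cells that do not express a gene. The T-, NK- and B-like cells, summed as lymphoid, were used as a rough guide to its level.

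Over cells not gated metastatic-like, Cxcl1, Cxcl2 and Cxcl5 were each more than 2-fold higher in the high-burden library. Cxcl1, with 521 low-burden and 6206 high-burden UMIs, stood at 39.2 and 333 CPM, a log2 ratio of 3.09 (interval 2.96 to 3.22). Cxcl2, with 2996 and 30562 UMIs, stood at 226 and 1641 CPM, a log2 ratio of 2.86 (2.81 to 2.92). Cxcl5 had only 5 and 63 UMIs, or 0.376 and 3.38 CPM, and a log2 ratio of 3.17 (1.87 to 4.84). Cxcl15 went the other way, from 253 to 156 CPM, a log2 ratio of -0.70 (-0.77 to -0.63). Cxcl3 (22 and 59 UMIs) had a log2 ratio of 0.94 (0.21 to 1.71), and Cxcr2 (26 and 46 UMIs) one of 0.34 with an interval that spans 0 (-0.39 to 1.09).

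So 3 of the 6 members were 2-fold or more higher and none was 2-fold or more lower. Cxcl5 (5 and 63 UMIs) passed the filter of 20 UMIs only through the high-burden library, so its call is no support. Among all 14310 genes with at least 20 UMIs in these cells, 7.46% were 2-fold or more higher and 21.8% 2-fold or more lower. Of all genes past 2-fold, 25.5% were on the higher side, and median-of-ratios scaling, which adds 0.38 to every log2 ratio, made this 48%. No member changed its side of 0 under that scaling, and Cxcl3 (1.31) then passed 2-fold as well, which made 4 of 6. For Cxcl5, 1 cell held 39 of the 63 high-burden UMIs, and 1 cell held 3 of the 5 low-burden ones. With metastatic-like cells included, the log2 ratio of Cxcl1 stayed at 3.08, that of Cxcl2 was 1.51, and that of Cxcl15 was -2.01. Cxcl2 and Cxcl15 were thus lower in CPM once the carcinoma cells were counted, and Cxcl1 was not.

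**Figure D1:**
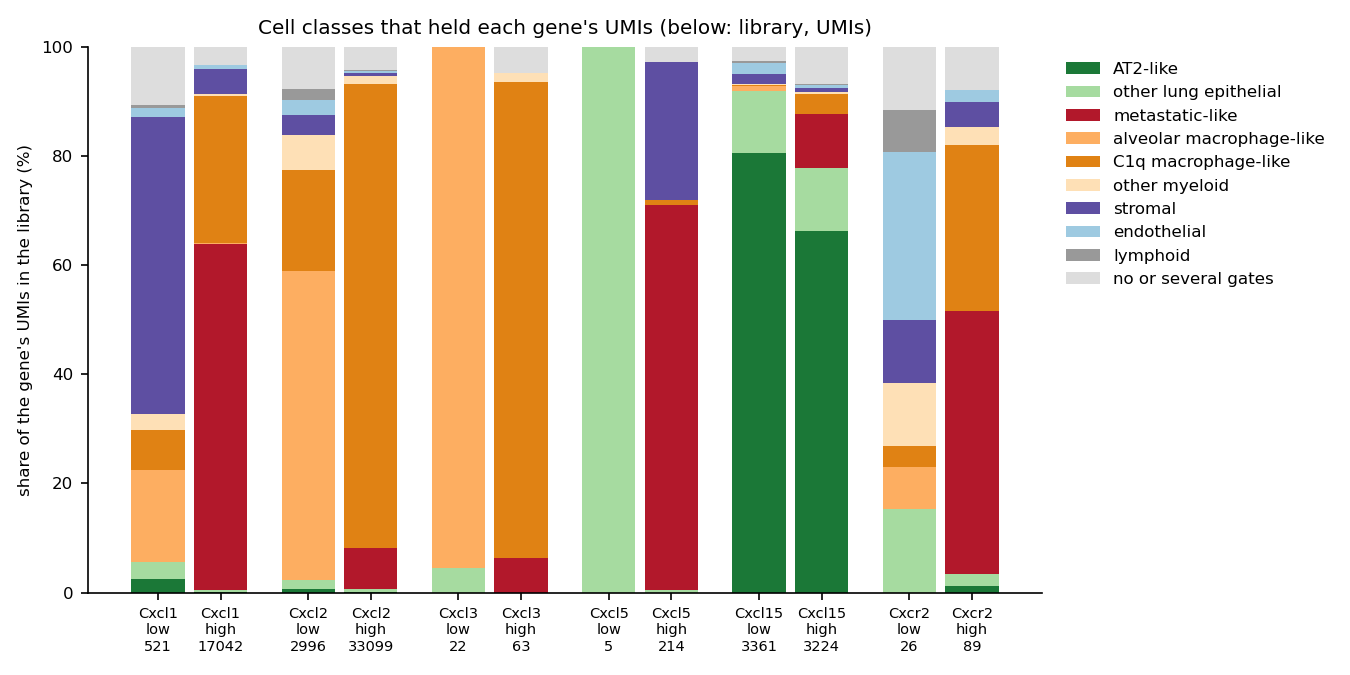
Stacked share (percent) of each member's UMIs that lay in each class or group of classes, with the low- and high-burden libraries side by side and the number of UMIs under each bar. Stromal cells held the most Cxcl1 in the low-burden library (54.3%) and metastatic-like cells in the high-burden one (63.6%), and for Cxcl2 these were alveolar macrophage-like (56.6%) and C1q macrophage-like cells (85.1%).

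Cxcl1 (KC), a main neutrophil attractant in the mouse, was a stromal and myeloid transcript at low burden and mainly a carcinoma and macrophage transcript at high burden. At low burden, stromal classes held 54.3% of its UMIs, adventitial fibroblast-like cells alone 48.0%, and myeloid classes 27.3%. At high burden, metastatic-like cells held 63.6% and C1q macrophage-like cells 27.1%. In the low-burden order of levels, adventitial fibroblast-like cells (197 CPM) came first and C1q macrophage-like cells (147 CPM) next, with overlapping intervals. Alveolar macrophage-like (52.5 CPM) and monocyte-like cells (44.1 CPM) followed, also overlapping. In the high-burden library the order was adventitial fibroblast-like (819 CPM) and mesothelial-like (654 CPM), which overlapped, then C1q macrophage-like (486 CPM), then monocyte-like (341 CPM) and metastatic-like cells (330 CPM), which overlapped. Single cells set part of this high-burden order. Without the top cell of each class, C1q macrophage-like cells (480 CPM) and mesothelial-like cells (457 CPM) came first, adventitial fibroblast-like cells were at 367 CPM, metastatic-like cells at 326 CPM and monocyte-like cells at 189 CPM (119 to 287). The top monocyte-like cell lay near a gate limit and held 20 of 42 UMIs.

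**Figure D2:**
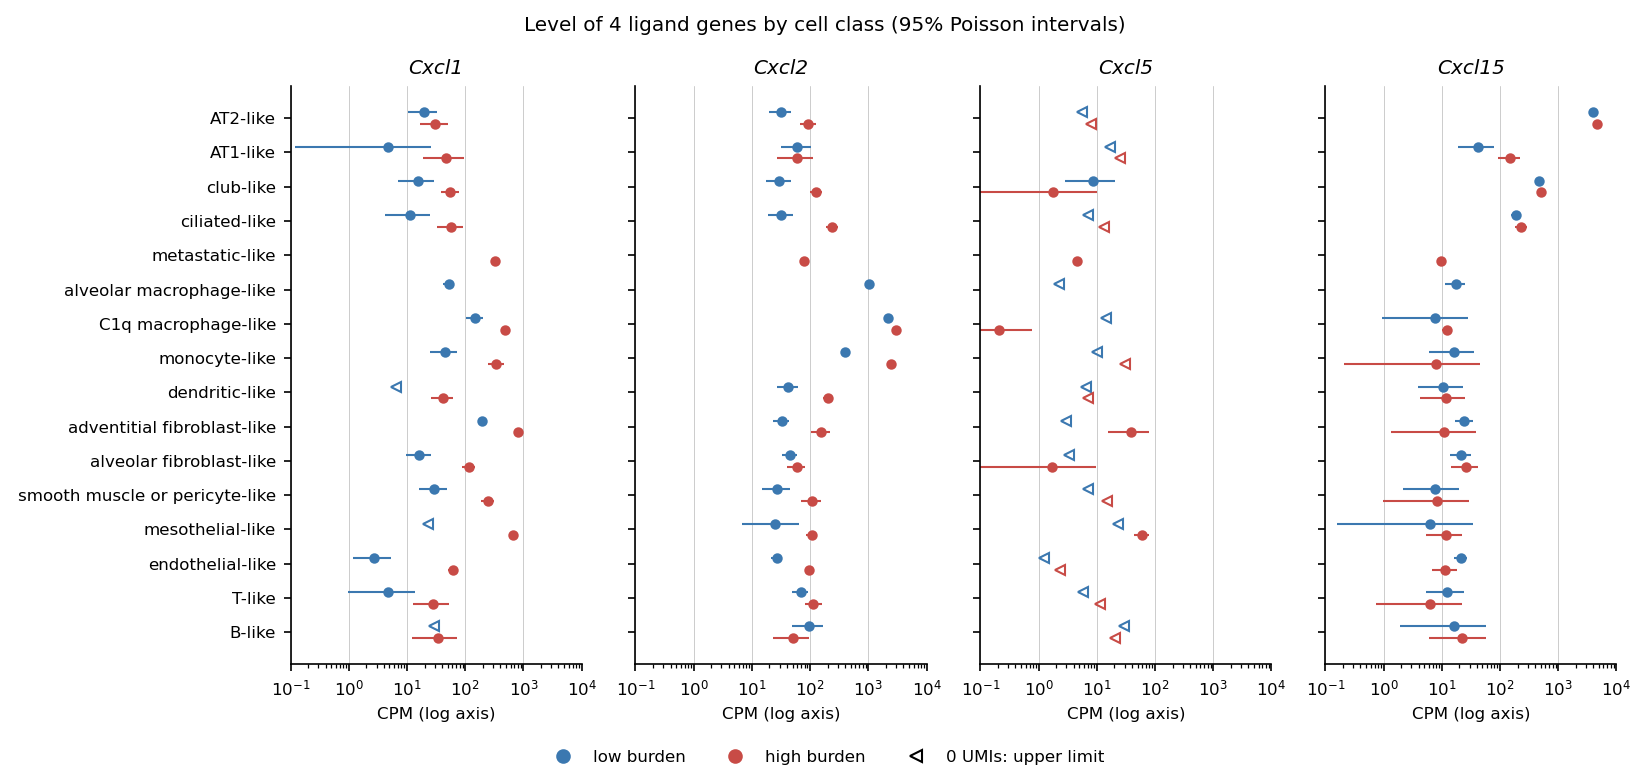
Levels of Cxcl1, Cxcl2, Cxcl5 and Cxcl15 (CPM, log axis) in each class with at least 10 cells, for both libraries, with exact Poisson intervals as bars. Cxcl1 is spread over stromal, myeloid and metastatic-like classes, Cxcl2 is highest in macrophage- and monocyte-like classes, and Cxcl15 stands in AT2-like and club-like cells.

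Within C1q macrophage-like cells, Cxcl1 had 38 UMIs in 57 low-burden cells and 4615 in 848 high-burden cells, or 147 and 486 CPM. The log2 ratio was 1.72 (1.26 to 2.22), a 3.30-fold higher level at high burden. The thinned share of these cells with a Cxcl1 UMI was 16.3% (7.32 to 29.7) and 45.3% (41.9 to 48.7), against 15.8% and 65.3% unthinned. Different clusters filled this class in the libraries, since 73.7% of the low-burden cells lay in cluster 18 and 75.1% of the high-burden cells in cluster 2. Lymphoid cells had Cxcl1 at 3.42 and 29.5 CPM and a thinned share of 0.775% and 7.81%, and T-like cells, most of them, had median depths of 3228 and 7449 UMIs against 4038 and 10432 in C1q macrophage-like cells. In this class 1 of the 5 members past the count filter of 20 UMIs (Cxcl1) was 2-fold or more higher, against 11.8% of all genes. Higher genes were 44.8% of all genes past 2-fold, or 58.1% under median-of-ratios scaling.

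Every stromal class with enough cells also held more Cxcl1 at high burden, with a few cells carrying much of it. In adventitial fibroblast-like cells, the class around vessels and airways, Cxcl1 was at 197 CPM (250 UMIs) and 819 CPM (150 UMIs), a log2 ratio of 2.05 (1.75 to 2.35). In the high-burden library 1 of the 20 cells held 61.3% of these UMIs. Without it the level was 367 CPM (279 to 475), still above that of the low-burden library, and that cell lay in a mesothelial-named cluster, near a gate limit. The cluster that held 94.9% of the low-burden cells of this class held 12 of the 20 high-burden ones, and the mesothelial-named cluster held 7. Here 2 of the 3 members past the filter (Cxcl1 and Cxcl2) were 2-fold or more higher, against 6.96% of all genes. With only the top high-burden cell left out, Cxcl1 was less than 2-fold higher, and Cxcl2 (32.4 and 82.4 CPM) was the 1 member past 2-fold. These Cxcl2 levels were under those of lymphoid cells (68.4 and 90.4 CPM) and could not be told apart from background. With the top cell of each library left out, Cxcl1 was at 183 and 367 CPM, about 2-fold higher.

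In alveolar fibroblast-like cells Cxcl1 was at 16.1 and 116 CPM, a log2 ratio of 2.85 (2.08 to 3.69), and it was the 1 member of 3 past 2-fold, against 6.28% of all genes. With 18 and 67 UMIs, Cxcl1 passed the filter only through the high-burden library. Without the top cell the high-burden level was 81.4 CPM. At high burden, 30.9% of these cells lay in a cluster that passed several gates. Mesothelial-like cells, which line the lung surface, had 0 Cxcl1 UMIs in 23 low-burden cells and 504 in 42 high-burden cells (654 CPM), at least 35.0-fold higher against a floor of 3 counts. Without the top cell the high-burden level was 457 CPM, and the thinned share was 28.6% against 0 of 20 low-burden cells. Of the 3 members past the filter there, Cxcl1 and Cxcl5 had 0 low-burden UMIs and passed only through the high-burden library, so their calls are no support. Cxcl2 (4 and 82 UMIs, or 24.9 and 107 CPM) was also 2-fold or more higher and likewise passed only through the high-burden library. Without the top cell its high-burden level was 87.3 CPM, under the 90.4 CPM of lymphoid cells. Without its top cell Cxcl5 was at 9.45 CPM, under the low-burden floor of 18.7 CPM, which leaves no bound for it. Of all genes 12.7% were 2-fold or more higher, and higher genes made up 52.1% of those past 2-fold, or 72.4% under median-of-ratios scaling. Smooth muscle and pericyte-like cells had 29.1 CPM at low burden and, in 17 cells, 246 CPM at high burden.

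Endothelial-like cells carried Cxcl1 at 2.73 CPM, within the interval of the lymphoid level, at low burden and at 62.4 CPM at week 3, a log2 ratio of 4.51. Without the top cell the high-burden level was 43.9 CPM, against 29.5 CPM (16.5 to 48.6) in lymphoid cells. Both Cxcl1 and Cxcl2, of 3 members past the filter, were 2-fold or more higher in this class, against 5.38% of all genes. Cxcl1 (8 and 98 UMIs) passed the filter only through the high-burden library, so its call is no support. Cxcl2 (26.6 and 96.8 CPM) was near or under its lymphoid level of 68.4 and 90.4 CPM. In epithelium Cxcl1 was low. AT2-like cells, the surfactant-producing alveolar type II cells, had 13 and 14 UMIs, or 19.4 and 30.4 CPM, with an interval of the log2 ratio that spans 0 (-0.55 to 1.86). The low-burden level (interval 10.3 to 33.1) was above that of lymphoid cells (0.706 to 10.0), with 5 of the 13 UMIs in 1 cell, and the high-burden level was close to the lymphoid 29.5 CPM. The shares of AT2-like cells with a UMI were 0.901% and 7.14% thinned and 5.26% and 19.6% unthinned, against 1.37% and 18.8% unthinned in lymphoid cells. Club-like cells, secretory cells of the airway, had 15.6 and 55.4 CPM.

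**Figure D3:**
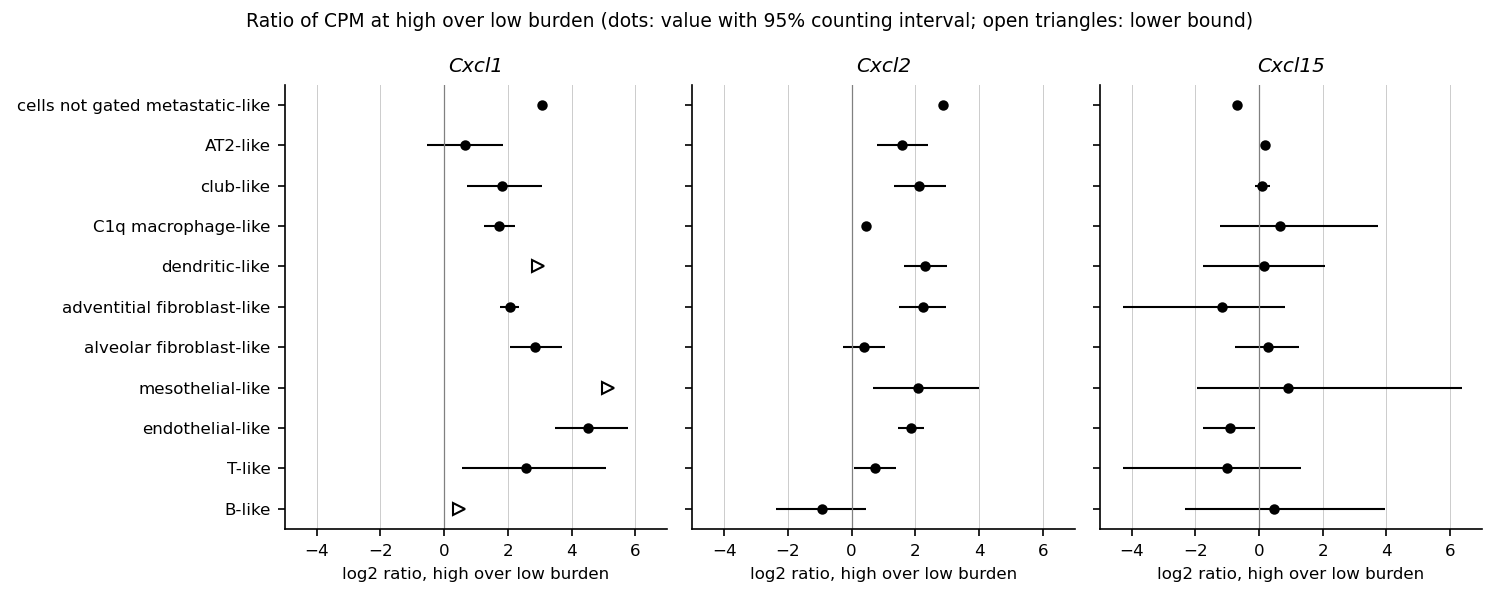
Log2 ratio of high over low burden for Cxcl1, Cxcl2 and Cxcl15 in cells not gated metastatic-like and within each class with at least 20 cells per library, with exact intervals, and open triangles for lower bounds where a library had 0 UMIs. Cxcl1 lies above 0 in each stromal and macrophage class drawn, while Cxcl15 in AT2-like cells lies near 0 (0.20).

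Metastatic-like cells carried Cxcl1 at the pooled level of all other high-burden cells and held less of the macrophage ligands Cxcl2 and Cxcl3. Their Cxcl1 level of 330 CPM (10836 UMIs) differed from the 333 CPM of the other high-burden cells by a log2 ratio of -0.01 (-0.06 to 0.03). That pool mixes unlike classes, such as T-like (27.7 CPM), C1q macrophage-like (486 CPM) and adventitial fibroblast-like cells (819 CPM). Its level thus depends on the makeup of the suspension. Their Cxcl2 level of 77.3 CPM against 1641 CPM gave -4.41 (-4.47 to -4.35). The corresponding values were -4.70 for Cxcl3, -3.99 for Cxcl15, -0.92 for Cxcr2 and 0.44 (0.01 to 0.89) for Cxcl5. None of the 6 members was 2-fold or more higher in metastatic-like cells, where 10.8% of all genes were, and 3 were 2-fold or more lower, where 24.4% of all genes were. The thinned Cxcl1 share of metastatic-like cells was 40.6% (38.0 to 43.3), well above the 7.81% of lymphoid cells of the same library. Their thinned Cxcl2 share of 19.6% (17.5 to 21.8) was at the lymphoid 18.8% (10.1 to 30.5), so their Cxcl2 could not be told apart from background. Unthinned, these Cxcl2 shares were 75.0% and 42.2%.

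Cxcl1 was close between metastatic-like cells split by proliferation transcripts seen after thinning. The 710 metastatic-like cells with a UMI of the proliferation genes Mki67 or Top2a after thinning stood at 333 CPM (324 to 341) and the 663 without one at 326 CPM (317 to 336). For Cxcl5 the values were 3.77 CPM (69 UMIs) and 5.64 CPM (82 UMIs). Before thinning, the 663 cells still held Mki67 at 24.6 CPM and Top2a at 142 CPM, against 69.1 and 510 CPM in the 710. The split is thus by amount and does not set dividing cells against cells that lack these transcripts.

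**Figure D4:**
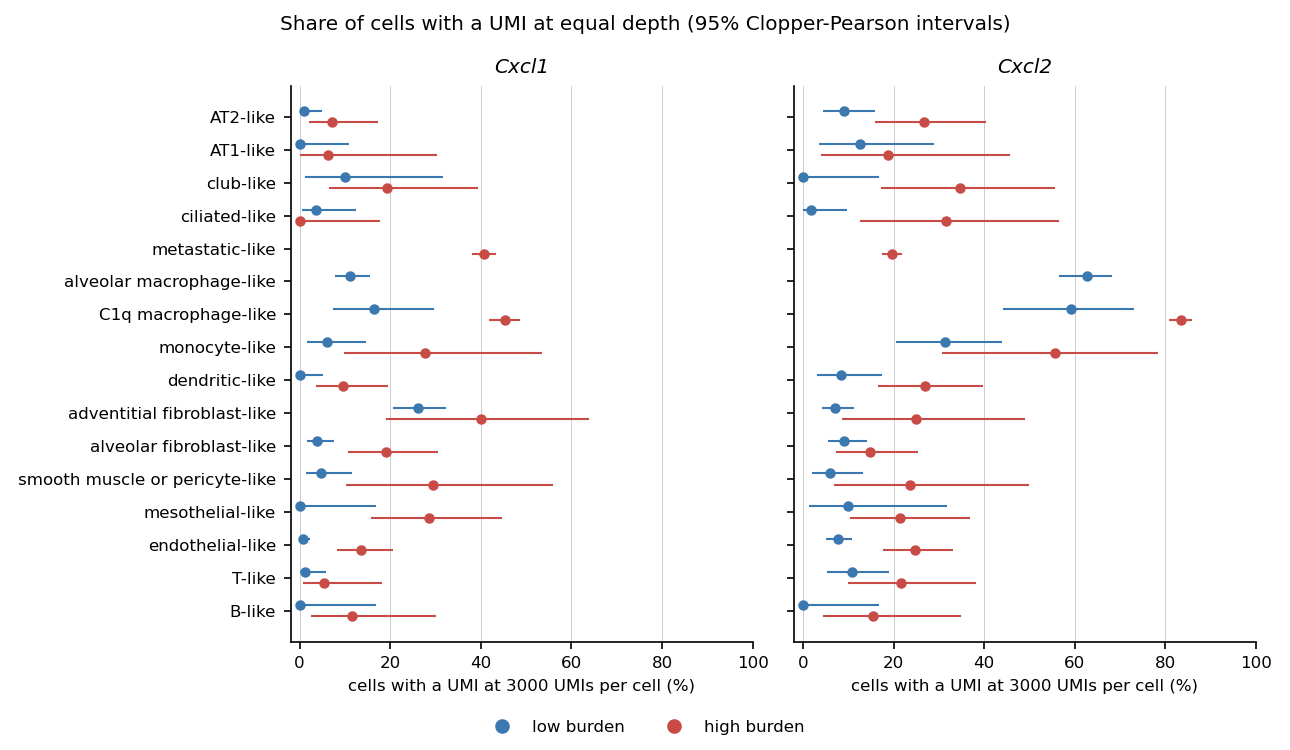
Percent of cells with a UMI of Cxcl1 or Cxcl2 after thinning to 3000 UMIs, by class and library, for classes with at least 10 thinned cells, with exact binomial intervals. C1q macrophage-like cells are highest for both ligands at high burden (45.3% and 83.5%), and metastatic-like cells show 40.6% for Cxcl1 and 19.6% for Cxcl2.

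Cxcl2 (MIP-2), which macrophages release early after a stimulus, was myeloid in both lungs, and myeloid classes held 81.7% and 86.4% of its UMIs. What differed was the macrophage class that held it. At low burden, alveolar macrophage-like cells had 1697 UMIs, 56.6% of the library's Cxcl2, at 1013 CPM, and C1q macrophage-like cells had 557 UMIs (18.6%) at 2158 CPM. At high burden, C1q macrophage-like cells had 28154 UMIs, 85.1% of all, at 2965 CPM, and the 3 alveolar macrophage-like cells had 2 UMIs. Within C1q macrophage-like cells the log2 ratio was 0.46 (0.34 to 0.58), a 1.37-fold higher level, while the level over cells not gated metastatic-like was 7.27-fold higher. These cells were 2.31% of low-burden and 28.0% of high-burden cells. Their thinned share with Cxcl2 was 59.2% (44.2 to 73.0) and 83.5% (80.8 to 85.9), against 57.9% and 92.3% unthinned.

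Monocyte-like and neutrophil-like cells carried Cxcl2 as well. The 102 low-burden monocyte-like cells stood at 400 CPM and the 18 high-burden ones at 2476 CPM, or 1911 CPM without the top cell. Of these 18 cells, 44.4% lay in a dendritic-named and 38.9% in a C1q macrophage-named cluster. Dendritic-like cells had 42.0 and 206 CPM, or 127 CPM (98.2 to 163) at high burden without the top cell, which lay in a monocyte-named cluster. The low-burden level was under the lymphoid 68.4 CPM. The high-burden interval without that cell overlapped that of lymphoid cells (90.4 CPM), so these values could not be told apart from background. The 3 neutrophil-like cells of each library had 24 and 47 Cxcl2 UMIs and no Cxcl1 UMI. At low burden 2 of them lay in an alveolar macrophage-named cluster and 1 in a monocyte-named one. At high burden 1 each lay in a C1q macrophage-named cluster, a monocyte-named one and one that passed several gates. Their Cxcl2 may therefore not be that of neutrophils.

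Outside the myeloid classes Cxcl2 was set against its level of 68.4 and 90.4 CPM in lymphoid cells. This was not a clean measure of free RNA, since endothelial-like cells (26.6 CPM) were below it at low burden. Single T-like cells of a dendritic-named cluster held 14 of 44 T-like UMIs at low burden and 15 of 37 at high burden. Without them the T-like levels were 47.3 and 69.25 CPM. The epithelial classes together had 34.1 and 131 CPM, a log2 ratio of 1.94 (1.54 to 2.37). Club-like cells had 29.5 and 127 CPM, a log2 ratio of 2.11 (1.33 to 2.96), and the high-burden level was 97.1 CPM (72.3 to 128) without the top cell. Ciliated-like cells had 31.8 CPM and, in 19 high-burden cells, 239 CPM, or 127 CPM (87.8 to 177) without the top cell. All low-burden epithelial levels named here were below the lymphoid one. Without the top cell the high-burden club- and ciliated-like intervals overlapped the lymphoid one (66.2 to 120), which kept its own top cell. The interval of T-like cells without theirs (43.4 to 105) also overlapped both. The lymphoid sum without that cell was not computed. AT2-like cells had 31.3 and 93.4 CPM, a log2 ratio of 1.58 (0.79 to 2.41), and Cxcl2 was the 1 of their 3 members past 2-fold, against 6.63% of all genes. The AT2-like values were near or under the lymphoid level and could not be told apart from background. In AT2-like cells, 52.1% of all genes past 2-fold were higher, or 40.6% under median-of-ratios scaling. T-like cells had 68.3 and 114 CPM, and Cxcl2, their 1 member past the filter, was not 2-fold higher, where 9.35% of all genes were. Adventitial fibroblast-like cells had 32.4 and 153 CPM, or 82.4 CPM without the top cell. Endothelial-like cells had 26.6 and 96.8 CPM, or 78.85 CPM without the top cell. Mesothelial-like cells had 24.9 and 107 CPM, or 87.3 CPM without the top cell. The low-burden levels of these classes were under the lymphoid one. Without the top cell their high-burden levels were too, so these values could not be told apart from background.

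Cxcl1 and Cxcl2 were found in the same macrophages. Of 384 high-burden C1q macrophage-like cells with Cxcl1 after thinning, 95.8% (93.3 to 97.6) also had Cxcl2, against 73.3% (69.0 to 77.2) of the 464 without Cxcl1. In low-burden alveolar macrophage-like cells the shares were 90.3% (74.2 to 98.0) of 31 cells and 59.1% (52.7 to 65.3) of the others. In metastatic-like cells they were 21.0% and 18.7%. Cells of 1 library are not replicates, and a cell rich in either transcript was not matched for its state. Arg1 encodes an arginase of alternatively activated macrophages. The 91 high-burden C1q macrophage-like cells with an Arg1 UMI after thinning had Cxcl1 at 745 CPM (693 to 799) and Cxcl2 at 3462 CPM. The 757 without one after thinning had 454 CPM (440 to 469) and 2904 CPM, and some of them may hold Arg1 UMIs that thinning dropped. Of all thinned cells, 78 of 1866 at low burden and 610 of 3033 at high burden had UMIs of 2 or 3 of the 5 ligands, and no cell had more.

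Cxcl3, the close relative of Cxcl2, was scarce and sat in macrophages. It had 22 UMIs in 6 low-burden cells and 63 in 27 high-burden cells. Alveolar macrophage-like cells held 21 of the low-burden UMIs in 5 cells, 10 of them in 1 cell. C1q macrophage-like cells held 55 of the high-burden UMIs in 20 cells (5.79 CPM). In the 57 low-burden C1q macrophage-like cells it had 0 UMIs, which allows up to 11.6 CPM (3 counts), so a difference within the class was not detectable at this depth.

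Cxcl5 (LIX) had 5 UMIs in 3 club-like cells at low burden and no UMI in another class. At high burden it had 214 UMIs in 85 cells. Metastatic-like cells held 151 of these in 72 cells (4.60 CPM), and mesothelial-like cells 46 in 5 cells (59.7 CPM). In mesothelial-like cells 1 cell had 39 UMIs, and without it the level was 9.45 CPM. Adventitial fibroblast-like cells held 7 UMIs in 1 cell, and club-like, alveolar fibroblast-like and C1q macrophage-like cells 1, 1 and 2. AT2-like cells had none in either library.

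Cxcl15 was the epithelial ligand in both lungs. AT2-like cells held 80.6% of its low-burden and 66.2% of its high-burden UMIs, at 4035 CPM (2710 UMIs) and 4638 CPM (2136 UMIs). The log2 ratio was 0.20 (0.12 to 0.28), a 1.15-fold higher level at high burden. After thinning, 99.1% and 100% of AT2-like cells had a UMI. Cxcl15 was among the 10 leading genes of this class and was not on its marker list. Club-like cells had 474 and 509 CPM, a log2 ratio of 0.11 with an interval that spans 0 (-0.14 to 0.35), and ciliated-like cells 189 and 231 CPM. The lower level over cells not gated metastatic-like (253 and 156 CPM) stood beside fewer AT2-like cells, 4.61% of low-burden and 1.85% of high-burden cells. In AT1-like cells the levels were 41.8 and 147 CPM, and 42.7 CPM at high burden without a single cell from an AT2-named cluster. Other classes had values near the lymphoid 13.7 and 11.8 CPM, such as 9.78 CPM in metastatic-like cells.

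Cxcr2, the receptor for these ligands on neutrophils, was sampled by few UMIs. It had 26 UMIs in 23 low-burden cells and 89 UMIs in 76 high-burden cells, and 20 and 65 of these cells had 1 UMI. Neutrophil-like cells (S100a8, S100a9, Retnlg, Csf3r) were 3 in each library, 0.121% and 0.0989% of cells. They lay in macrophage-named or monocyte-named clusters, or in one that passed several gates. Cxcr2 UMIs in the neutrophil-like cells were 1, 1 and 0 at low burden and 1, 0 and 2 at high burden, or 212 and 125 CPM. Cxcl2 UMIs in the same cells were 7, 1 and 16, and 5, 20 and 22. Metastatic-like cells held 43 Cxcr2 UMIs (1.31 CPM) and C1q macrophage-like cells 1 and 27 UMIs (2.84 CPM at high burden). The 0 UMIs of high-burden lymphoid cells allow up to 5.89 CPM (3 counts), so these levels were not distinguishable from background. The neutrophil alarmin transcript S100a8 had 1562 and 8349 UMIs, of which 39 and 652 lay in neutrophil-like cells, and the neutrophil surface gene Ly6g had 1 and 11. The cell filter removed 2 further neutrophil-like cells with 3 Cxcr2 UMIs at high burden and none at low burden. How many neutrophils the dissociation lost was not tested.

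Genes that induce the ligands were described next, from lists chosen with the members. Of 12 inducers and their receptors, 10 passed the count filter in cells not gated metastatic-like, of which 5 were 2-fold or more higher and none 2-fold lower. Their median log2 ratio was 0.88, against -0.33 over all genes. Of all genes in these cells, 7.46% were 2-fold or more higher and 21.8% lower, and the lists below are read beside the same shares. The highest were Il6 (2.72), which stimulates an acute-phase response, Tnf (2.36) and Osm (2.16), and the lowest were Il1r1 (-0.79), the interleukin-1 receptor, Il17ra (-0.37) and Tnfrsf1a (-0.26), the main tumor necrosis factor receptor. Il17a had 1 UMI at low and 0 at high burden, and Il17f had none in either.

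Within C1q macrophage-like cells, 5 of the 10 inducers past the filter were 2-fold or more higher, with a median of 1.31 without Il1r1, which had 0 low-burden UMIs (1.11 with it at its bound), against -0.17 over all genes. The highest were Il1a (2.50, from 2 and 416 UMIs), Il17ra (2.18, from 2 and 334 UMIs) and Tnf (1.88, from 8 and 1083 UMIs, or 31.0 and 114 CPM). Il17rc and Osm, also past 2-fold, had 1 and 13 low-burden UMIs. All 5 passed the filter only through the high-burden library, so their calls are no support. Il6 (-0.16) and Tlr4 (0.08) were lowest. Of all genes in this class, 11.8% were 2-fold or more higher and 14.5% lower, also for the lists below. In metastatic-like cells Il17rc was at 80.6 CPM and Tnfrsf1a at 74.2 CPM, against 6.16 and 24.6 CPM in T-like cells of the same library. Il1r1 was at 5.21 CPM, against 3.08 CPM from 1 UMI in T-like cells, and was not distinguishable from background.

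Regulators of NF-κB and of mRNA decay differed between classes. In cells not gated metastatic-like, all 8 passed the filter, 1 was 2-fold or more higher and the median was 0.17. Nfkbiz, a co-activator of NF-κB (1.69), Zc3h12a, a nuclease that degrades cytokine mRNAs (0.71), and Nfkbia, the NF-κB inhibitor (0.44), were highest. Rela (-0.81), Nfkb1 (-0.23) and Nfkb2 (-0.02) were lowest. In C1q macrophage-like cells none of the 8 was 2-fold higher and 1 was 2-fold lower (Nfkb2, -1.78), with a median of -0.57. The next lowest were Zfp36, which hastens decay of cytokine mRNAs (-0.98), and Rela (-0.93), and the least negative were Nfkb1 (-0.12), Nfkbiz (-0.23) and Tnfaip3 (-0.42). In stromal classes more of them were higher. In mesothelial-like cells 4 of the 7 past the filter were 2-fold or more higher, against 12.7% of all genes. None was lower and the median was 1.04. Of these 4, Nfkbiz, Nfkb2 and Zfp36 had only 4, 1 and 15 low-burden UMIs. In adventitial fibroblast-like cells 3 of 7 were higher and 1 lower, with a median of 0.57, beside 2 of 6 inducers higher and none lower.

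Other attractants of neutrophils gave 4 of 10 genes 2-fold or more higher and 2 lower in cells not gated metastatic-like, with a median of 0.85. Csf3, which drives neutrophil production, was highest (5.42, from 1 and 60 UMIs), followed by Ccl4 (2.81) and the platelet chemokine Pf4 (2.53). Csf3 passed the filter only through the high-burden library. Ppbp (-1.81), Hc, which encodes complement C5 (-1.40), and Lta4h (0.04) were lowest. Metastatic-like cells held 673 Csf3 UMIs (20.5 CPM). In C1q macrophage-like cells 2 of 9 were higher and 1 lower, with a median of -0.46 without Csf3, which had 0 low-burden UMIs (-0.47 with it at its bound). Ccl4 (2.60) and Mif (2.27) were higher, Alox5ap was at 0.25, and Pf4 (-1.38), Alox5 (-0.72) and Ccl3 (-0.59) were lowest.

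A list of other receptors on neutrophils and of scavenging receptors (Ackr1, Ackr2) had 1 of 9 genes 2-fold or more higher and 5 lower in cells not gated metastatic-like, with a median of -1.77. Endothelial-like cells held 222 of the 321 low-burden Ackr2 UMIs and 40 of the 44 high-burden Ackr1 UMIs. With 3 neutrophil-like cells in each library, these counts do not describe receptors of neutrophils. C5ar1 (1.47), Ackr1 (0.88) and Csf3r (-0.25) were highest. Cxcr1 (-4.91, from 43 and 2 UMIs), which also binds ELR chemokines, and the formyl peptide receptors Fpr1 (-2.18) and Fpr2 (-1.90) were lowest. In C1q macrophage-like cells 6 passed the filter, with none higher, 1 lower and a median of -0.90 without Fpr1, which had 0 low-burden UMIs (-0.91 with it at its bound). Csf3r (-0.01), Ltb4r1 (-0.82) and Fpr2 (-0.90) were highest there, and Cxcr4 (-3.30) and C5ar1 (-0.92) lowest.

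Cxcl1 and Cxcl2 are also induced when tissue is digested, so early response genes were set beside them. In cells not gated metastatic-like, none of 15 dissociation and stress genes was 2-fold or more higher and 1 was lower (Jund, -1.17), with a median of -0.29. Socs3 (0.58), Ier3 (0.57) and Atf3 (0.50) were highest and Jun (-0.68) and Fosb (-0.52) next lowest. In C1q macrophage-like cells none was higher and 10 were lower, with a median of -1.39, where 14.5% of all genes were 2-fold or more lower. Fos was at 4974 and 1099 CPM (-2.18), Jund at -2.08 and Fosb at -2.07, while Nr4a1 was at 0.28, Hspa1b at -0.02 and Ier3 at -0.65. In mesothelial-like cells, where Cxcl1 was at least 35.0-fold higher, 10 of the 15 were 2-fold or more higher, against 12.7% of all genes. Their median was 1.08 and none was lower. The part of dissociation in the Cxcl1 difference was not tested.

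**Figure D5:**
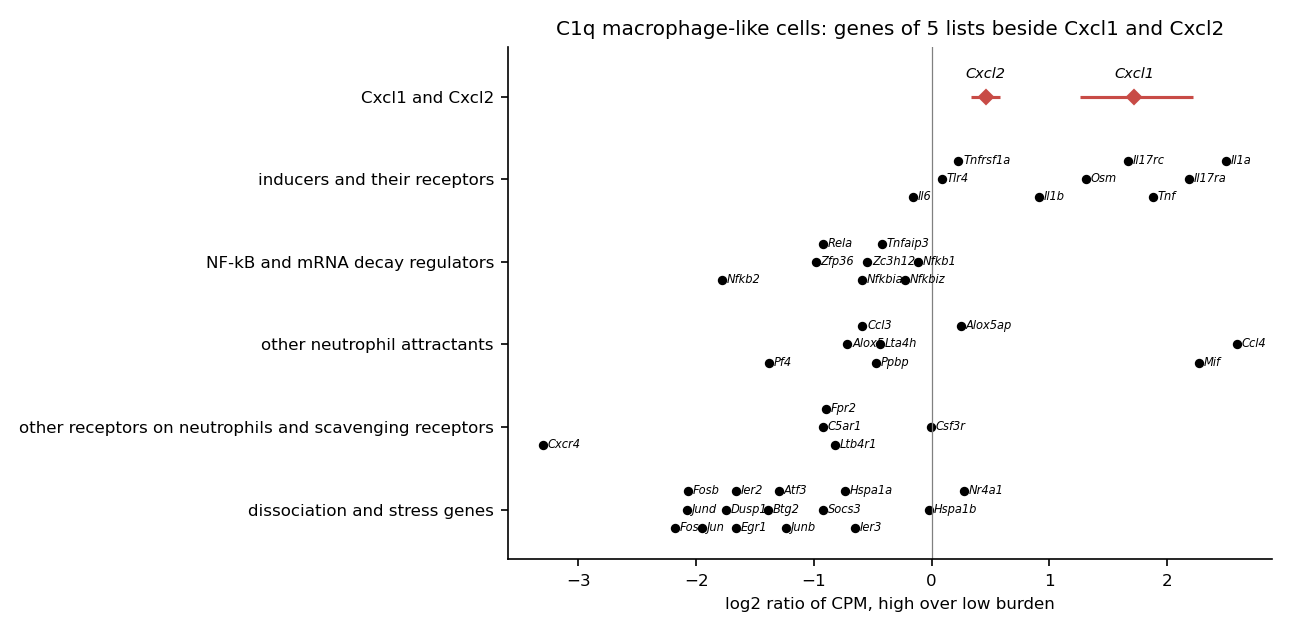
Log2 ratio of high over low burden in C1q macrophage-like cells for the genes of the 5 lists that had values, beside Cxcl1 (1.72) and Cxcl2 (0.46). Several inducers lie above Cxcl2, all but Il1b of them from 13 low-burden UMIs or fewer, and 10 of the 15 dissociation and stress genes lie at -1 or below.

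Across 28 sums (each class and library with at least 20 cells), the genes whose levels followed each member most closely were computed over 11336 genes with log2(CPM + 10). They are given as descriptions, since sums of 1 library share depth and free RNA. Cxcl15 had the closest companions, the surfactant protein genes Sftpa1 (Pearson r = 0.98), Sftpb (0.98) and Sftpd (0.98). For Cxcl2 they were the macrophage receptor genes Msr1 (0.92), Lilr4b (0.92) and Lilrb4a (0.91), and for Cxcl3 Il1rn (0.84), Atp6v0d2 (0.83) and Siglec1 (0.83). Cxcl1 was less closely matched, by Pycr1 (0.81), Ccl7 (0.80) and Fn1 (0.80). The low counts of Cxcl5 and Cxcr2 left Jsrp1 (0.79), Rdh10 (0.74) and Wnt4 (0.74) beside the first and the natural killer cell genes Ncr1 (0.78), Gzma (0.77) and Klra4 (0.73) beside the second. The value for Cxcr2 rests on a low-burden sum of 32 NK-like cells with 2 UMIs in 1 cell.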

How the data were processed

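The authors processed 10x Genomics reads with Cell Ranger 2.0.2 on mm10 with the PYMT transgene added, and deposited raw UMI counts per gene and cell. Whether these precede the aggregation named in the study's methods is not stated. Totals were 14041471 and 52723173 UMIs in 2668 and 3121 barcodes. Cells with 1000 to 7000 genes and at most 10% mitochondrial UMIs were kept (5506). Groups came from the sample titles. The members and lists were chosen with earlier results of these data known.

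Each of 178 markers of 20 classes (176 listed) was expressed as log2(1 + UMIs per 10000), divided by its 30th highest cell and limited to 1. A class needed a mean of at least 0.2, at least 3 markers with a UMI and 1.25 times the best class of another compartment. This scoring was set after the data were seen, and names rebuilt this way may differ from those of the study. No gate was passed by 63 and 151 cells and several gates by 105 and 111. Leiden clusters (23, of which 21 were named) were made without the members from 2000 variable genes, 10 principal components and 15 neighbors at resolution 1, with no integration. Doublets were kept. Scrublet marked 77 and 33 cells, and their removal was an alternative.

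Sums were scaled to CPM. Counts carry Poisson, ratios conditional binomial and shares Clopper-Pearson intervals. A sum of 0 was set to 3 counts, so its ratio is a bound, and such a gene is not counted in the other direction. Ratios within a class needed 20 cells per library and all-gene shares 20 UMIs. Thinning to 3000 UMIs left out 607 low-burden and 0 high-burden cells. From each list, the 3 highest and 3 lowest ratios past the filter are named for cells not gated metastatic-like and for C1q macrophage-like cells, except those at a bound, and counts are given elsewhere. For each member, the 3 most alike genes with 200 or more UMIs are named. The ratio and interval code was tested on simulated data. Python 3.11.15, scanpy 1.11.5, scipy 1.17.1, numpy 2.4.6, pandas 2.3.3 and leidenalg 0.10.2 were used.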

Additional observations from a re-analysis of the deposited data

Results flagged for a closer look

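A signal of Cxcl1 and Cxcl2 appeared in barcodes that the cell filter removed and that only the alternative ratios without a cell filter used. The 88 removed high-burden barcodes held 421 Cxcl1 UMIs, a level of 335.4 CPM (304 to 369), and 336 Cxcl2 UMIs, a level of 267.7 CPM (240 to 298). The 195 removed low-burden barcodes held Cxcl1 at 6.60 CPM and Cxcl2 at 35.6 CPM. Both were thus above the low-burden level in the removed barcodes as they were in the kept ones. Metastatic-like cells were not left out of the removed barcodes, so this does not compare the same kinds of cells. By the same marker gates, 2 of the 88 were neutrophil-like, with 3 of the 5 Cxcr2 UMIs removed there, and none of the 195 was.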

How the results depend on the processing

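No paired analysis was possible because each group had 1 library, and for the same reason leaving out a library was impossible. Of 273 alternative ratios of the members, 260 kept their side of 0. Of 334 alternatives of all kinds, 268 stayed close to the value reported, 63 moved away from it and 3 reversed. For ratios and shares, close meant within the interval of the value reported. Gene counts and list medians have no interval and were held to a set limit instead. The cause was not tested, except that the stricter gate by its construction leaves more carcinoma cells among those not gated metastatic-like. Leaving out cells with no or several gates, or near a gate limit, was chosen after seeing the data. Values below are log2 ratios of high over low burden.

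In cells not gated metastatic-like, Cxcl1 (3.09) was 2.95 with the stricter gate, 3.46 under median-of-ratios scaling, 2.56 after thinning, 2.84 as a mean of per-cell shares and 3.22 without cells with no or several gates. Cxcl2 (2.86) was 1.92, 3.24, 2.65, 2.38 and 3.02 under these, 2.94 without mitochondrial and ribosomal genes, 2.96 without Scrublet doublets and 3.30 with the lymphoid level subtracted. Cxcl3 (0.94) reversed to -0.029 with the stricter gate and to -0.37 after thinning, and was 0.066 as a mean of per-cell shares. Cxcl5 (3.17) was 1.75 after thinning. Cxcl15 (-0.70) was -1.62 with the stricter gate, -0.32 under median-of-ratios scaling, -0.62 without mitochondrial and ribosomal genes, -0.52 after thinning, -0.77 without top cells and -0.24 as a mean of per-cell shares.

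Within classes, Cxcl15 in AT2-like cells (0.20) was 0.10 under median-of-ratios scaling and 0.11 as a mean of per-cell shares. In C1q macrophage-like cells, Cxcl1 (1.72) was 1.10 with Leiden clusters as classes, and Cxcl2 (0.46) was 0.60 with them, 0.66 under median-of-ratios scaling and 0.62 without top cells. Cxcl1 in adventitial fibroblast-like cells (2.05) was 1.38 with Leiden clusters, 1.28 with the stricter gate, 1.45 after thinning, 1.00 without top cells, 1.68 as a mean of per-cell shares and 0.96 without cells near a gate limit. Cxcl2 in T-like cells (0.74) reversed to -0.40 with the stricter gate. Of 47 shares recomputed at 2000 UMIs, 33 stayed within their interval. Depth limits Cxcl3, Cxcl5 and Cxcr2 most, with at most 214 UMIs in a library.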
